A study of Mus musculus with 24 samples.

Results

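The transcripts of 8 regulators of G protein signalling, Rgs1, Rgs2, Rgs3, Rgs10, Rgs14, Rgs16, Rgs18 and Rgs19, were followed in mouse BM lymphoid progenitors lacking one or both isoforms of phospholipase Cγ. Members were chosen with earlier results of these data known and taken by gene symbol, and all 8 were among the 24421 genes counted. Counts of members set beside shares of all genes are therefore descriptions. CLPs, sorted as Lin-IL-7R+, and B cell progenitors, sorted as B220+IgM-IL-7R+, were sequenced from mice of 4 genotypes: Plcg1+/+Plcg2+/+, called the controls here, the single-deficient Plcg1-/-Plcg2+/+ and Plcg1+/+Plcg2-/-, and the double-deficient Plcg1-/-Plcg2-/-, with 3 libraries in each of 8 groups and 24 in all. The CLP and B cell progenitor library with one number came from the same mouse, so 12 mice were sampled.

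All 4 genotypes came from donor BM of the CD45.2+ type grown in lethally irradiated CD45.1+ recipients, and the sorted cells were of donor origin. Plcg2 was inactivated in the germline, whereas Plcg1 was a floxed allele removed by Cre under the interferon-inducible Mx promoter. Donors of all genotypes, Plcg1+/+Plcg2+/+ included, were injected with poly(I:C), which induces that promoter, and were adults of both sexes on a mixed 129xC57BL/6 background. The number of donors behind each genotype is not stated, so n counts recipients and p-values measure the spread between them.

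RGS proteins act on heterotrimeric G proteins after a receptor has switched them on. They speed the hydrolysis of GTP by the Gα subunit, which lets Gα and Gβγ rejoin and ends the signal, and so they set how long a cell responds to chemokines, sphingosine 1-phosphate and other ligands of G protein-coupled receptors. In lymphocytes they are known mainly as brakes on chemokine-driven migration, and several are induced by antigen receptor or growth factor signals. Rgs1, Rgs2, Rgs3, Rgs16 and Rgs18 belong to the R4 family, mostly small proteins with little beyond the RGS domain. Rgs10 and Rgs14 belong to the R12 family, and Rgs19, also called GAIP, to the RZ family.

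Reads on genes ranged from 4232345 to 33219995 in CLP libraries. B cell progenitor libraries held 1479582 to 25057223, and 3 of them fewer than 3000000. A count of 3 reads, the floor used here, was 0.0903 to 0.709 CPM (counts per 1000000 reads on genes) in a CLP library and 0.120 to 2.03 CPM in a B cell progenitor library, for counting error only. Plcg2 averaged 109 ± 9.23 normalized CPM in CLPs labelled Plcg1-/-Plcg2-/- against 233 ± 44.1 in Plcg1+/+Plcg2+/+ CLPs, and 91.6 ± 19.3 against 234 ± 19.3 in B cell progenitors (SD, n = 3 each). Plcg1 was not lower beyond the spread in the libraries labelled Plcg1-/-. In CLPs it averaged 107 ± 5.86 normalized CPM in the controls, 107 ± 34.7 in Plcg1-/-Plcg2+/+ and 140.5 ± 49.3 in Plcg1-/-Plcg2-/- libraries, and in B cell progenitors 92.8 ± 16, 78.8 ± 18.7 and 127 ± 65.4. A count over the whole gene also takes reads from outside a deleted part, so it does not check that label, and genotypes are given below as labelled. In both populations the 6 libraries labelled Plcg1-/- also had more Xist and less of 4 Y-linked transcripts than the 6 others. Sex-linked differences and the Plcg1 genotype therefore cannot be told apart wherever libraries labelled Plcg1-/- are compared with Plcg1+/+Plcg2+/+ or Plcg1+/+Plcg2-/- ones.

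The label of the populations was checked against markers. The summed level of 7 B lineage genes, among them Cd79a and Pax5, ranged from 677 to 5037 normalized CPM in CLP libraries and from 1412 to 5462 in B cell progenitor libraries, and 0 of the 7 were called between the populations in Plcg1+/+Plcg2+/+ mice by edgeR's test. The 6 CLP markers, Flt3 and Il7r included, overlapped likewise, from 787 to 3470 in CLPs and from 781 to 2872 in B cell progenitors. These markers therefore did not separate the Lin-IL-7R+ libraries from the B220+ ones, and the CLP label is kept as the name of the sort. CLP library 1 of Plcg1+/+Plcg2+/+ stood apart, with the lowest B lineage sum, 677 normalized CPM against 3976 and 3098 in its group. It also had the highest CLP marker sum of all libraries, 3470 normalized CPM against 1220 and 1184 in its group. The 7 myeloid markers summed to between 1403 and 8655 normalized CPM over all 24 libraries.

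Of the 8 genes, 4 lie on chromosome 1 (GRCm38, the build of mm10). Rgs2 (143999338 to 144004149), Rgs1 (144244669 to 144249104) and Rgs18 (144752683 to 144775427), all on the minus strand, stand in a block of 776.1 kb whose 5 protein-coding RefSeq genes are all RGS genes, with Rgs13 and Rgs21 between them. Rgs16 (153740353 to 153745468, plus strand) lies further along, 42.7 kb after Rgs8. The others lie on chromosome 4 (Rgs3, 62559835 to 62703019, plus strand), chromosome 7 (Rgs10, 128373621 to 128419506, minus strand), chromosome 13 (Rgs14, 55369732 to 55384687, plus strand) and chromosome 2 (Rgs19, 181688419 to 181694537, minus strand). The exons of Rgs16 overlap those of the gene model Gm28513 on the opposite strand by 236 bases. The counting is not stated to use strand, so reads there cannot be assigned to one of both genes.

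RefSeq promoters on GRCm38.p6 were matched for 5 of the 8 genes, Rgs2, Rgs3, Rgs10, Rgs16 and Rgs19. The 250 bases before the start are shown for Rgs16, the only member called by edgeR between double-deficient and control B cell progenitors, and for Rgs2, the most abundant one. They lie at chr1:153740103-153740352 on the plus strand and chr1:144004150-144004399 on the minus strand. Capitals mark CCAAT and GGGCGG, the CCAAT box and GC box, on either strand.
Rgs16: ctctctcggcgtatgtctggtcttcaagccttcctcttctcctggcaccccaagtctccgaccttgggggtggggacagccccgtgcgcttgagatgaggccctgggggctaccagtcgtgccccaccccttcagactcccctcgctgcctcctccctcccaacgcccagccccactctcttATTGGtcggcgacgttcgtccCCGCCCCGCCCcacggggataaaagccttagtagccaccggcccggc
Rgs2: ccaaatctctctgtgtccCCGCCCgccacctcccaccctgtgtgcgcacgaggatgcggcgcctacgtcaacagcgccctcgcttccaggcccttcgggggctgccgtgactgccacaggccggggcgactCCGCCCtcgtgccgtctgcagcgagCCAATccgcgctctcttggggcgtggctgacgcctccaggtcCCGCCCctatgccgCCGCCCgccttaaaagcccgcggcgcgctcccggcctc
Each of both windows held 1 CCAAT box, 68 and 94 bases before the start, and Rgs16 held 2 overlapping GC boxes against 4 in Rgs2. Among 32851 RefSeq promoters, 33.8% held CCAAT and 32.7% GGGCGG in a window of this length. GGAAA, the core bound by NFAT, TGANTCA, bound by AP-1, TGACGTCA, the cAMP response element, and TATAAA were found on neither strand of both windows, and were present in 55.6%, 6.75%, 1.55% and 12.4% of all promoters. The CCAAT and GC boxes were added to the search after both sequences had been read.

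Levels of different genes were compared as normalized CPM per kb of exon. In this measure Rgs2, which acts preferentially on Gαq, led in both populations, with 125 ± 46.3 CPM per kb in CLPs and 116 ± 34.1 in B cell progenitors (SD, n = 12 each). Rgs19 stood at 47.1 ± 8.20 and 35.5 ± 7.27 CPM per kb. Rgs1 averaged 48.9 ± 59.1 CPM per kb in CLPs, a spread too wide to order it, and 17.2 ± 11.3 in B cell progenitors. Rgs14, Rgs10 and Rgs18 had means between 18.5 and 27.6 CPM per kb in the populations and did not differ from each other beyond their spread. Rgs3 and Rgs16 were the least abundant, at 2.91 ± 1.55 and 2.49 ± 1.76 CPM per kb in CLPs and at 1.43 ± 0.580 and 2.89 ± 1.99 in B cell progenitors over all genotypes. Their order differed between genotypes: in control B cell progenitors Rgs16 stood at 4.71 ± 1.89 and Rgs3 at 0.853 ± 0.237 CPM per kb, without overlap, and in double-deficient ones Rgs16 at 0.712 ± 0.388 and Rgs3 at 1.83 ± 0.510 (SD, n = 3 each). The 8 genes together made up between 91.5% and 97.4% of the summed per-kb level of 21 RGS genes in every library. Rgs12, named after its level had been seen, was the only one of the 13 others whose level stayed above 30 normalized CPM in all libraries, at 38.8 to 94.6.

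**Figure D1:**
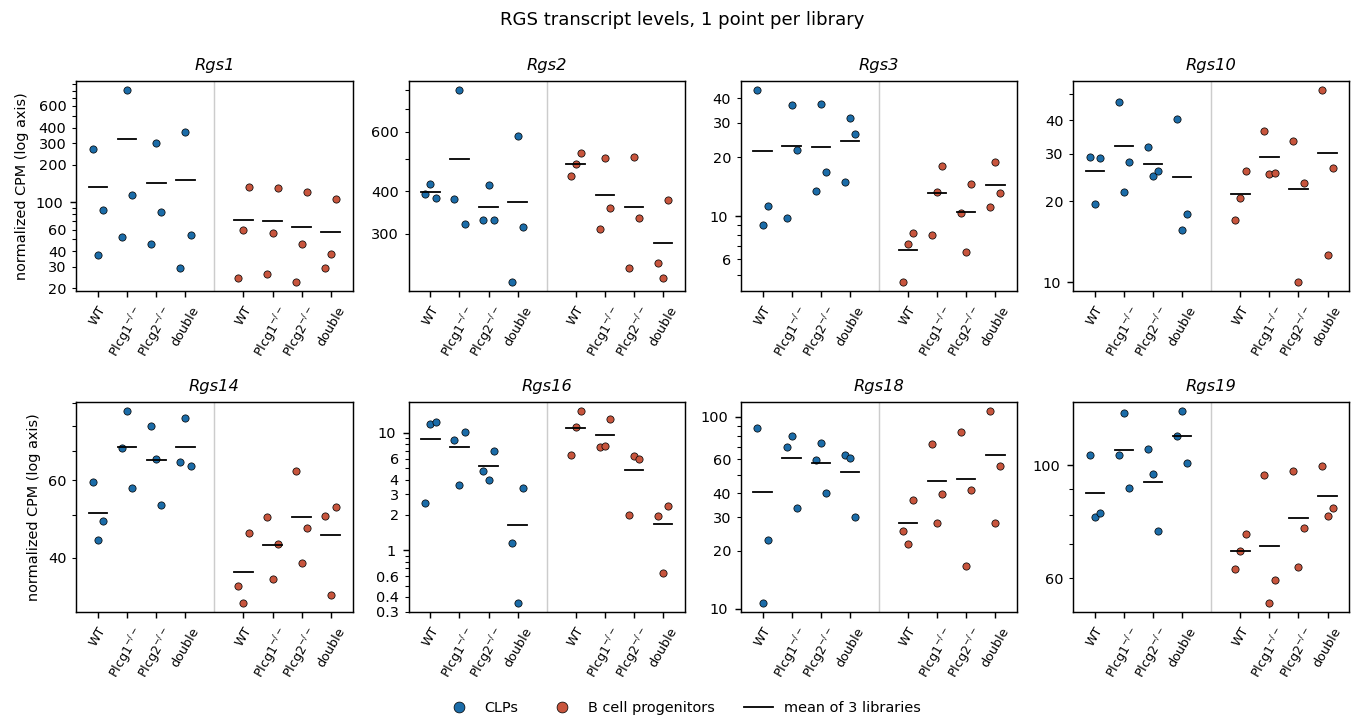
Normalized CPM (log axis) of the 8 RGS genes in each of 24 libraries, by population and labelled genotype, with bars at the mean of 3 libraries. Rgs16 is lowest in the group labelled Plcg1-/-Plcg2-/- in both populations, between 0.357 and 3.38 normalized CPM, whereas Rgs1 spreads from 29.4 to 807 among CLPs.

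Plcg1-/-Plcg2-/- B cell progenitors were compared with Plcg1+/+Plcg2+/+ ones to find members whose level differed where both isoforms were lost. Rgs16, which restrains chemokine receptor signals through Gαi and Gαq, was the only member called, and was lower. It was counted at 6.49, 11.3 and 15.3 normalized CPM in the Plcg1+/+Plcg2+/+ libraries (66, 105 and 203 reads) and at 1.97, 0.644 and 2.38 in the libraries labelled Plcg1-/-Plcg2-/- (6, 15 and 18 reads). The groups did not overlap, and every double-deficient library was below every control library. The level was 7.22-fold lower, a log2 fold change of −2.85 ± 0.567 (SE), with an adjusted p of 0.0371 by edgeR's quasi-likelihood test.

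The call needed a log2 fold change of 0.5 or more in size and a p, adjusted over all genes by Benjamini-Hochberg, of 0.05 or less. By this rule 1 of 8 members was called, against 0.893% of the 15001 genes tested, and 0.673% called lower. The call depended on single libraries. The adjusted p was 0.0450 without Plcg1+/+Plcg2+/+ library 1 but 0.0685, 0.140 and 0.0823 without double-deficient libraries 1, 2 and 3, and 0.127 and 0.155 without Plcg1+/+Plcg2+/+ libraries 2 and 3. Over 12 alternatives the adjusted p ranged from 1.48e-04, by DESeq2, to 0.155. Without the 3 libraries under 3000000 reads, an alternative chosen after seeing the data, the log2 fold change was −3.00 (adjusted p = 0.0453).

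Markers of later B cells were also lower in these libraries. The 4 mature B cell genes tested, Ms4a1, Cd22, Fcer2a and Cr2, summed to between 69.6 and 127 normalized CPM in B cell progenitors labelled Plcg1-/-Plcg2-/- and to between 203 and 267 in Plcg1+/+Plcg2+/+ ones. Their median log2 fold change was −1.58, 1 of the 4 was called, Cd22 at −1.62 (edgeR adjusted p = 0.00747), and none was at 0 in any of these libraries. Bulk RNA cannot tell fewer cells of a type from less RNA per cell, and the part of these markers in the Rgs16 difference was not tested.

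**Figure D2:**
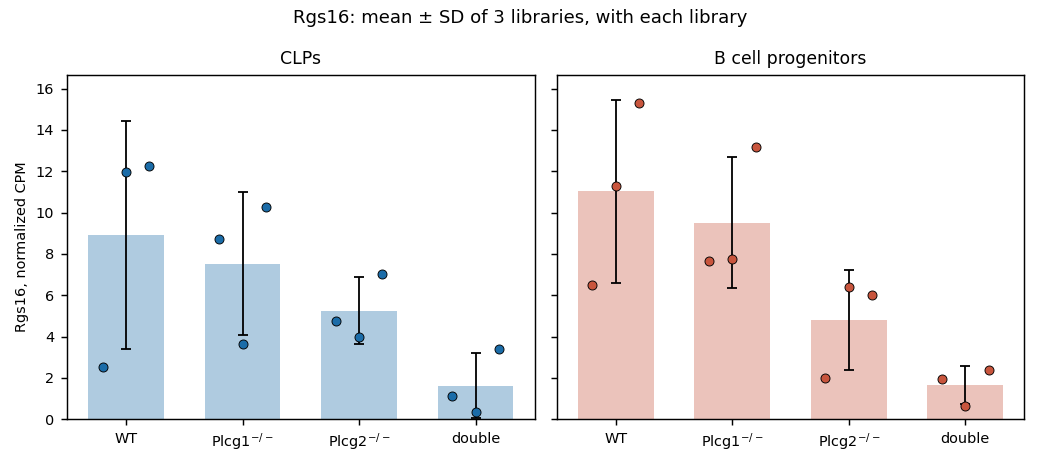
Rgs16 in normalized CPM by labelled genotype in CLPs and B cell progenitors, with bars and whiskers for the mean ± SD of 3 libraries and points for each library. In B cell progenitors the 3 double-deficient libraries, at 0.644 to 2.38, lie below the 3 Plcg1+/+Plcg2+/+ libraries, at 6.49 to 15.3, and the library labelled Plcg1+/+Plcg2-/- with the fewest Rgs16 reads lies at 1.99.

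None of the 7 other members passed the test in B cell progenitors labelled Plcg1-/-Plcg2-/-. Among the R4 genes, Rgs2 was at 445, 482 and 518 normalized CPM in Plcg1+/+Plcg2+/+ and at 246, 222 and 377 in the double-deficient libraries, all below (log2 fold change −0.78 ± 0.282, edgeR adjusted p = 0.288). Rgs3, a regulator of Gαi and Gαq, was at 4.62, 7.20 and 8.22 normalized CPM against 11.1, 18.8 and 13.1, all above (1.12 ± 0.365, edgeR adjusted p = 0.226). These 2 differences were larger than the spread of their own groups but did not pass the correction over all genes. At an unadjusted p of at most 0.05 stood 3 of 8 members, against 12.3% of all genes tested, and 4 of 8 had groups that did not overlap, against 19.2%.

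Rgs18, a platelet and megakaryocyte RGS protein, was at 25.3, 21.7 and 37.0 normalized CPM in Plcg1+/+Plcg2+/+ and at 107, 27.8 and 55.8 in the double-deficient B cell progenitors, with overlap (log2 fold change 1.16 ± 0.572, edgeR adjusted p = 0.444). Rgs1 (−0.31 ± 0.740), Rgs10 (0.47 ± 0.474), Rgs14 (0.26 ± 0.230) and Rgs19 (0.36 ± 0.215) had edgeR adjusted p-values between 0.524 and 0.888. The Rgs19 libraries lay apart, at 62.5 to 73.5 normalized CPM against 79.7 to 99.6. The median log2 fold change of the 8 members was 0.31, and that of all genes tested −0.02. The 7 myeloid markers moved beside these values: all had a log2 fold change above 0, with a median of 0.79 and 0 called, and summed to between 2632 and 6758 normalized CPM in double-deficient B cell progenitors and between 1404 and 4474 in Plcg1+/+Plcg2+/+ ones. Their part was not tested.

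**Figure D3:**
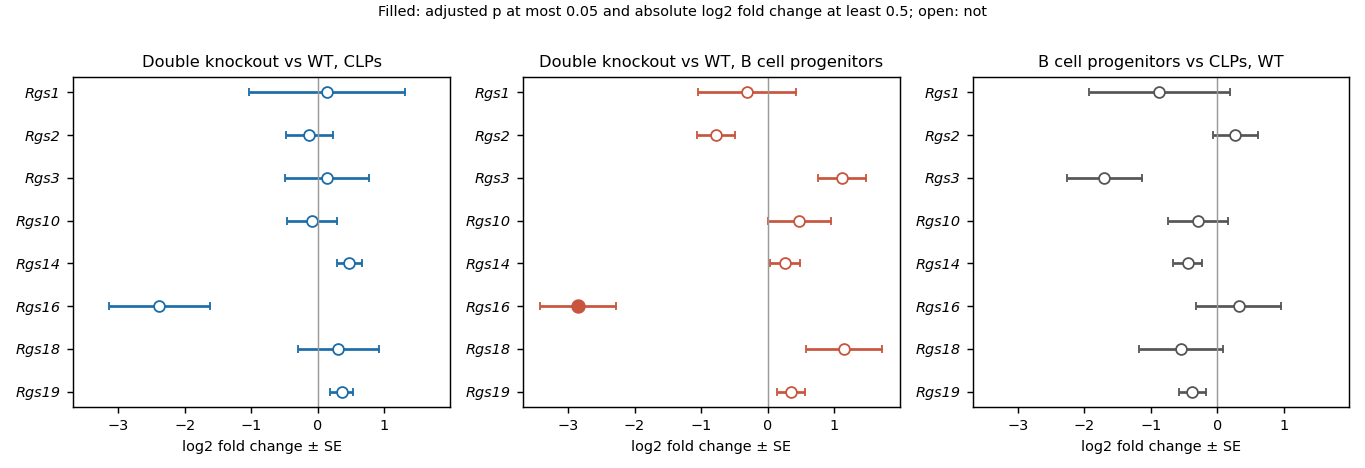
Log2 fold change ± SE (edgeR) of the 8 RGS genes, for libraries labelled Plcg1-/-Plcg2-/- against Plcg1+/+Plcg2+/+ in CLPs and in B cell progenitors, and for B cell progenitors against CLPs of Plcg1+/+Plcg2+/+ mice. Rgs16 in B cell progenitors, at −2.85, is the only filled point, and Rgs16 in CLPs lies at −2.38 with an SE of 0.761.

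In CLPs, 0 of 8 members were called between Plcg1-/-Plcg2-/- and Plcg1+/+Plcg2+/+ by edgeR, against 0.0921% of 15209 genes tested, and 0 by DESeq2. At an unadjusted p of at most 0.05 stood 2 of 8, Rgs16 and Rgs14, against 7.52% of all genes. Rgs16 was at 2.53, 11.9 and 12.3 normalized CPM in the Plcg1+/+Plcg2+/+ libraries (35, 49 and 405 reads) and at 1.14, 0.357 and 3.38 in the double-deficient libraries (24, 4 and 82 reads). The groups overlapped through Plcg1+/+Plcg2+/+ library 1, the one with few B lineage transcripts and the highest CLP marker sum. The log2 fold change was −2.38 ± 0.761 (edgeR adjusted p = 0.430), and without that library the adjusted p was 0.155, the lowest over the 6 libraries left out in turn, within a range of 0.0615 to 0.853 over 11 alternatives. The mature B cell markers had a median log2 fold change of −1.30 in this comparison, with 0 of 4 called.

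Rgs14, which also binds Ras-family GTPases and inactive Gαi, was the member whose CLP groups did not overlap. It was at 59.6, 43.9 and 48.6 normalized CPM in Plcg1+/+Plcg2+/+ CLPs and at 66.1, 83.1 and 64.7 in those labelled Plcg1-/-Plcg2-/- (log2 fold change 0.47 ± 0.190, edgeR adjusted p = 0.597). Not overlapping in this comparison were 13.6% of all genes tested. Rgs1 (0.14 ± 1.17), Rgs2 (−0.13 ± 0.358), Rgs3 (0.14 ± 0.638), Rgs10 (−0.09 ± 0.375), Rgs18 (0.31 ± 0.610) and Rgs19 (0.36 ± 0.174) had edgeR adjusted p-values between 0.676 and 0.984. With an SE of 1.17, a 2-fold difference of Rgs1 in either direction was not detectable. In the direct test of whether the double-deficient difference was larger in B cell progenitors than in CLPs, Rgs16 differed by −0.47 on the log2 scale, and 0 of 8 members had an unadjusted p of at most 0.05, against 1.37% of all genes. Of 17212 genes 0% were called there by edgeR, and DESeq2 called 0 members. The same held for both single-deficient genotypes, with 0 of 8 members at that p against 3.48% (Plcg1-/-Plcg2+/+) and 0.901% (Plcg1+/+Plcg2-/-) of all genes.

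Single-deficient genotypes were examined to learn whether loss of one isoform was enough. Plcg1-/-Plcg2+/+ B cell progenitors had Rgs16 at 7.64, 7.73 and 13.2 normalized CPM, within the range of Plcg1+/+Plcg2+/+ libraries. Plcg1+/+Plcg2-/- ones had 1.99, 6.41 and 6.0, against 6.49 in the lowest control library, with a log2 fold change of −1.14 and an edgeR adjusted p of 0.919. The first of these values came from 5 reads. In CLPs, Rgs16 was at 8.71, 3.62 and 10.3 normalized CPM in those labelled Plcg1-/-Plcg2+/+ and at 4.77, 3.96 and 7.05 in Plcg1+/+Plcg2-/- ones, both within the range of Plcg1+/+Plcg2+/+. That range was wide through control library 1, at 2.53. All these single-deficient values lay below control libraries 2 and 3, at 11.9 and 12.3. By edgeR's test 0 of 8 members were called in any of these 4 comparisons, with 0.00658% and 0% of all genes called in CLPs and 0.06% and 0.0467% in B cell progenitors, for Plcg1-/-Plcg2+/+ and Plcg1+/+Plcg2-/- in turn. DESeq2 also called 0. In Plcg1+/+Plcg2-/- CLPs edgeR did not call Plcg2 itself (log2 fold change −0.93 ± 0.163, edgeR adjusted p = 0.368). It did so in B cell progenitors (−1.37 ± 0.165, edgeR adjusted p = 0.0187). A count of 0 calls therefore does not show that levels were equal.

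At an unadjusted p of at most 0.05 stood 1 member in each comparison of Plcg1-/-Plcg2+/+ with Plcg1+/+Plcg2+/+ and 0 in those of Plcg1+/+Plcg2-/-. All genes at that p were 2.85% and 9.93% in the former, in CLPs and B cell progenitors, and 3.92% and 2.84% in the latter. In CLPs this was Rgs14, at 71.0, 86.3 and 57.5 normalized CPM (0.49 ± 0.190, edgeR adjusted p = 1.00). In B cell progenitors it was Rgs3, at 7.96, 13.3 and 18.1 normalized CPM (0.99 ± 0.366, edgeR adjusted p = 0.467). Both overlapped their controls. Over all 8 members, log2 fold changes lay from −0.23 to 1.26 in CLPs and from −0.28 to 0.99 in B cell progenitors labelled Plcg1-/-Plcg2+/+, and in Plcg1+/+Plcg2-/- mice from −0.77 to 0.49 in CLPs and from −1.14 to 0.72 in B cell progenitors.

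The double-deficient genotype was also set against each single-deficient one. The comparison with Plcg1-/-Plcg2+/+ holds the Xist and Y-linked split constant, since all its libraries lie on one side of it. Rgs16 was lower there in both populations, with a log2 fold change of −2.65 ± 0.569 in B cell progenitors (edgeR adjusted p = 0.116) and −2.15 ± 0.753 in CLPs (edgeR adjusted p = 0.893). The 4 mature B cell markers moved beside it, with a median log2 fold change of −1.90 in B cell progenitors, where Cd22 was called at −1.36 (edgeR adjusted p = 0.0465), and of −1.36 in CLPs, where 0 were called. Their sums overlapped, at 69.6 to 127 against 121 to 441 normalized CPM in B cell progenitors and at 88.8 to 139 against 128 to 393 in CLPs, and their part was not tested. Neither Rgs16 difference was called, against 0.213% and 0.0263% of all genes. Rgs16 was the 1 member of 8 at an unadjusted p of at most 0.05 in each, where 16.6% and 4.29% of all genes stood. With the replicate number as a block the B cell progenitor difference was −2.78 and was called (edgeR adjusted p = 0.0320), as it was by DESeq2 (adjusted p = 0.00181), settings that called 0.667% and 5.35% of all genes. Over its 12 alternatives the adjusted p ranged from 0.00181 to 0.452.

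Against Plcg1+/+Plcg2-/-, Rgs16 was the member with an unadjusted p of at most 0.05 in B cell progenitors (−1.72 ± 0.586, edgeR adjusted p = 0.370), with overlap. In CLPs, where 0 of 8 reached it, Rgs16 had a log2 fold change of −1.61 (edgeR adjusted p = 0.669). The mature B cell markers had medians of −1.45 in B cell progenitors, with Cd22 called at −1.56 (edgeR adjusted p = 0.0294), and −1.21 in CLPs with 0 called. All genes at that p were 11% in B cell progenitors and 7.54% in CLPs. By edgeR's test 0 of 8 members were called in either, against 0.153% and 0.0526% of all genes, and 0 by DESeq2. Comparisons with Plcg1+/+Plcg2-/- cross the Xist and Y-linked split, so sex-linked differences cannot be told from the Plcg1 genotype there. The double-deficient groups are shared by the comparisons with both single-deficient genotypes, which are not independent of those with Plcg1+/+Plcg2+/+. A departure from additive effects of both deletions was not called for any member in either population (log2 −1.38 for Rgs16 in CLPs and −1.52 in B cell progenitors, with 0 of 8 members at an unadjusted p of at most 0.05 by edgeR and 0 called by DESeq2). Of all genes, 0.0197% and 0.0267% were called there, while 4.77% and 15.3% stood at the unadjusted threshold.

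B cell progenitors were compared with CLPs of the same mice to place the members along early B cell development. The edgeR values given did not use this pairing. With the mouse as a block, an alternative, the count of members called was the same in 7 comparisons involving both populations. In Plcg1+/+Plcg2+/+ mice 0 of 8 were called by edgeR, against 3.5% of 17212 genes. Rgs3 was the one with an unadjusted p of at most 0.05, where 16.1% of all genes stood. It was at 44.1, 9.02 and 11.3 normalized CPM in CLPs and at 4.62, 7.20 and 8.22 in B cell progenitors, all lower (log2 fold change −1.70 ± 0.568, edgeR adjusted p = 0.116). The first CLP library set this value. Without it the log2 fold change was −0.59 with an adjusted p of 0.905, whereas DESeq2 on all libraries called the gene (adjusted p = 0.0330) among 4.75% of all genes. Over the 12 alternatives the adjusted p ranged from 0.0330 to 0.905.

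None of the other R4 members was called. Rgs2 was at 394, 421 and 383 normalized CPM in CLPs and at 445, 482 and 518 in B cell progenitors, all higher, with a log2 fold change of 0.27 ± 0.344 (edgeR adjusted p = 0.787) that kept its sign in 12 of 12 alternatives. So did those of Rgs3, Rgs10, Rgs14 and Rgs19, and the alternatives largely reuse the same libraries. Rgs1 (−0.87 ± 1.06), Rgs16 (0.32 ± 0.636) and Rgs18 (−0.55 ± 0.633) had edgeR adjusted p-values between 0.755 and 0.885, and each changed sign without CLP library 1, to 0.23, −0.10 and 0.71. Rgs10, Rgs14 and Rgs19 had log2 fold changes of −0.30 ± 0.450, −0.45 ± 0.223 and −0.38 ± 0.207, with edgeR adjusted p-values of 0.836, 0.330 and 0.396. Rgs2, Rgs3 and Rgs19 had groups that did not overlap, as did 20.9% of all genes tested.

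By their group means Rgs1, Rgs3, Rgs14 and Rgs19 were lower in B cell progenitors in every genotype. Rgs1 averaged between 132 and 324 normalized CPM in the CLP groups, against 57.7 and 72.3 in the B cell progenitor groups. Rgs3 averaged between 21.5 and 24.3 against 6.68 and 14.4. Rgs14 averaged between 50.7 and 71.6 normalized CPM in the 4 CLP groups and between 37.2 and 49.5 in the 4 B cell progenitor groups, and Rgs19 between 88.2 and 114 against 67.9 and 87.2. In mice labelled Plcg1-/-Plcg2+/+ the log2 fold changes were −0.75 ± 0.223 for Rgs14 (edgeR adjusted p = 0.0632) and −0.63 ± 0.208 for Rgs19 (edgeR adjusted p = 0.0879), while the median of all genes stood at 0.13. Neither was called by edgeR, whereas DESeq2 called both (adjusted p = 0.0247 and 0.0476) among 8.62% of all genes. Their adjusted p ranged from 0.0247 to 0.355 and from 0.00816 to 0.501 over 12 alternatives each. In mice labelled Plcg1-/-Plcg2-/-, Rgs14 differed by −0.67 ± 0.224 (edgeR adjusted p = 0.122). The genes called by edgeR were 3.78% of all in Plcg1-/-Plcg2+/+ mice, 3.21% in Plcg1+/+Plcg2-/- mice and 3.24% in double-deficient mice, with 0 members among them, and DESeq2 called 0 members in the latter 2 genotypes. At an unadjusted p of at most 0.05 stood 2, 0 and 1 of the 8, against 26.5%, 16.2% and 14.3% of all genes. Reads on no gene made up between 17.9% and 45.2% of the CLP libraries and between 59.9% and 87.3% of the B cell progenitor libraries, so this share moved with the population, and its part was not tested.

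Rgs1, which dampens chemokine responses of B cells and is rapidly induced on activation, varied widely among libraries of one group. In B cell progenitors it followed the library number and not the genotype: it lay between 22.7 and 29.5 normalized CPM in the 4 libraries numbered 1, between 38.2 and 59.3 in those numbered 2 and between 105 and 133 in those numbered 3. In CLPs it was highest in library 2 of Plcg1-/-Plcg2+/+ mice (807), of double-deficient mice (368) and of Plcg1+/+Plcg2-/- mice (302), and in library 1 of Plcg1+/+Plcg2+/+ mice (271). The summed level of 9 immediate early genes, Fos, Jun and Egr1 among them, moved beside it. That sum lay in B cell progenitors between 1779 and 2380 normalized CPM in libraries numbered 1, between 3207 and 4960 in those numbered 2 and between 6897 and 9327 in those numbered 3, and in CLPs it was highest, 31793, in the library with most Rgs1. The labels do not say what libraries of one number share across genotypes, and the part of the immediate early genes in the Rgs1 values was not tested.

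Rgs18, and in B cell progenitors Rgs10, a regulator of Gαi abundant in myeloid cells, were high in the same few libraries as some of the marker sums. In B cell progenitors the 3 libraries numbered 1 other than Plcg1+/+Plcg2+/+ held 72.0, 83.7 and 107 normalized CPM of Rgs18 and 36.6, 33.5 and 51.8 of Rgs10. Rgs19 was also highest in these 3, at 95.5, 97.7 and 99.6 normalized CPM against 82.4 or less in the 9 others. These 3 libraries held 6758 to 7623 normalized CPM of the 7 myeloid markers and 53.5 to 94.7 of 5 megakaryocyte markers. The 9 other libraries held 1403 to 5304 and 20.3 to 43.8. Their sums of 6 NK and ILC markers, 164 to 177, lay within the range of those 9, 36.5 to 218. In CLPs Rgs18 was at 61.1 to 87.7 normalized CPM in library 1 of Plcg1+/+Plcg2+/+ and the libraries numbered 2 of the 3 other genotypes. These 4 had low myeloid sums, 2425 to 3435, but megakaryocyte sums of 151 to 370 and NK and ILC sums of 317 to 636, against 23.4 to 111 and 60.4 to 287 in the 8 other CLP libraries. The CLP markers, Flt3 and Il7r included, were likewise highest in these 4, with sums of 1994 to 3470 against 787 to 1308 in the 8 others. Rgs1, at 271 to 807 normalized CPM, and Rgs3, at 31.6 to 44.1, were also highest in these 4. The 8 others held at most 114 of Rgs1 and 26.3 of Rgs3. Of those 8, the libraries numbered 1 also held much Rgs18, 59.6 to 69.9 normalized CPM. The part of these markers in the values was not tested.

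**Figure D4:**
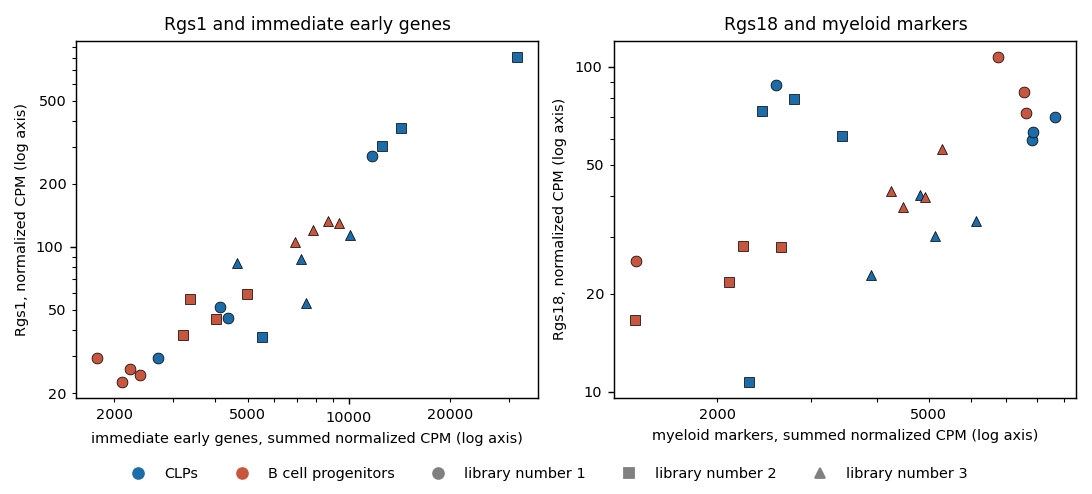
Left, Rgs1 against the summed immediate early genes, and right, Rgs18 against the summed myeloid markers, in normalized CPM on log axes, 1 point per library, with colour for the population and shape for the library number. Rgs1 spans 22.7 to 807 normalized CPM and is highest where the immediate early sum is highest, 31793, and 4 CLP libraries with Rgs18 at 61.1 to 87.7 normalized CPM have myeloid sums of 3435 or less.

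Other genes of the pathway were counted in lists. Of the 13 other RGS genes, 6 could be tested in CLPs and 10 in B cell progenitors, and 0 were called between Plcg1-/-Plcg2-/- and Plcg1+/+Plcg2+/+ by edgeR in either. Of 32 G protein subunits, 0 of 27 tested were called in CLPs and 2 of 26 in B cell progenitors. Gna15, a Gαq-class subunit of haematopoietic cells, rose from 31.6 ± 7.65 to 71.0 ± 7.27 normalized CPM (n = 3 each, SD), with a log2 fold change of 1.16 ± 0.219 (edgeR adjusted p = 0.0290). Gna11, another Gαq-class subunit, fell from 57.3 ± 3.51 to 32.6 ± 1.26 normalized CPM, a log2 fold change of −0.82 ± 0.121 (edgeR adjusted p = 0.00791).

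Of 28 chemoattractant and lipid receptors, 1 was called lower in each population labelled Plcg1-/-Plcg2-/-, among 28 tested in CLPs and 27 in B cell progenitors. It was Ccr7, the receptor for lymph node chemokines, at 55.3 ± 17 normalized CPM in control and 11.1 ± 2.53 in double-deficient CLPs (log2 fold change −2.33 ± 0.281, edgeR adjusted p = 0.0250) and at 57.8 ± 22.1 against 11.7 ± 1.71 in B cell progenitors (−2.29 ± 0.274, edgeR adjusted p = 0.00243). The 7 receptor kinases and arrestins and the 23 effectors and other regulators gave 0 calls by edgeR in both. In CLPs the median log2 fold change was −0.59 over the other RGS genes tested, 0.14 over G protein subunits, 0.08 over receptors, 0.36 over kinases and arrestins and −0.02 over effectors, where all genes had −0.03. In B cell progenitors these medians were −0.68, 0.28, 0.52, 0.41 and 0.21, where all genes had −0.02. Several of the other RGS genes tested lay near the floor. In double-deficient B cell progenitors Rgs4, Rgs6, Rgs7 and Rgs22 had at most 4, 3, 6 and 5 reads in a library. Rgs12, the abundant one among them, had log2 fold changes of −0.21 in CLPs and −0.31 in B cell progenitors. Between B cell progenitors and CLPs of Plcg1+/+Plcg2+/+ mice, 1 gene of all these lists was called, Gnal, a Gαs-class subunit, higher with 21.2 ± 1.90 against 12.1 ± 1.33 normalized CPM (0.80 ± 0.213, edgeR adjusted p = 0.0362).

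For each member, the genes most like it over the 24 libraries were found by Pearson's r of log2 CPM, as a description of libraries that share mice, depth and sort. Rgs1 was most like Ccl4 (r = 0.94), Plk3 and Ier3, and Rgs2 most like H3f3b (r = 0.86), Gsn and Hist1h1c. Rgs16 was most like Rbm24 (r = 0.86), Lrrc10b and the class II gene H2-Ab1. Rgs3 was most like Thy1 (r = 0.92), Il27ra and Acsbg1, and Rgs18 most like Fam105a (r = 0.95), Rnf130 and Cd34. Rgs10 was most like Rexo2 (r = 0.90), Ctsh and Scpep1. Rgs14 and Rgs19 shared one of their nearest genes, Tmem63a, beside Cotl1 (r = 0.94) and Itgb2 for Rgs14 and Hps1 (r = 0.93) and Mettl7a1 for Rgs19.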

How the data were processed

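CLPs and B cell progenitors of 4 labelled genotypes were analysed, with 3 libraries a group. The authors purified poly(A) RNA, aligned reads to mm10 (RefSeq) with STAR 2.5.0a, according to the submitters' processing notes, and deposited for each library the raw counts of reads on 24421 genes; the counting program is not given in the sources used here. The 2 rows that name no gene, for unassigned and ambiguous reads, were left out of library sizes and tests. The test on counts was edgeR 4.0.16, run in R 4.3.3 (TMM, filterByExpr, glmQLFit, glmQLFTest, Benjamini-Hochberg adjustment over all genes), with one fit of 4 genotypes for each population and one of all 24 libraries for comparisons of populations. Levels are CPM normalized with TMM over 24 libraries, and SEs come from the F statistic. Lengths are merged exons of protein-coding transcripts in GENCODE M21. Between replicates the chi-square of counts was 8.28 to 133 times its degrees of freedom, so none was a copy.

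All 8 members were named. Fold changes were printed for each in the comparisons of Plcg1-/-Plcg2-/- with Plcg1+/+Plcg2+/+ and of B cell progenitors with CLPs in Plcg1+/+Plcg2+/+ mice, and elsewhere at an unadjusted p of at most 0.05, apart from a few values of Rgs16 that were added after they had been seen. Genes of other lists were named when called there, apart from some other RGS genes named for their level. Similar genes were the first 3 by r, with 2 as the prior count of the log2 CPM. The members and lists were chosen with earlier results of these data known. Alternatives were RLE factors, no filter, adjusted p alone, DESeq2 1.42.0, the groups of a comparison alone, each library left out, libraries under 3000000 reads left out, and the replicate number or mouse as a block. The mouse pairs both populations by the labels. Across genotypes every same-numbered pair correlated in its deviations above 0.1 between Plcg1-/-Plcg2-/- and Plcg1-/-Plcg2+/+ CLPs (lowest 0.37), and between Plcg1-/-Plcg2-/- and Plcg1+/+Plcg2-/- CLPs (0.236) and B cell progenitors (0.207). The script was tested on simulated data. Figures were drawn with matplotlib 3.10.9. One gene of the B lineage list is not reported here and was left out of its sum.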

Additional observations from a re-analysis of the deposited data

How the results depend on the processing

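The count of members called was unchanged in 16 of 19 comparisons under DESeq2 and in all 19 under RLE factors, no filter on low counts and adjusted p alone. The Rgs16 call in B cell progenitors labelled Plcg1-/-Plcg2-/- kept its sign in 12 of 12 alternatives and was called in 7, and leaving out each library gave between 0 and 1 member called, with a log2 fold change between −3.41 and −2.31. Against Plcg1-/-Plcg2+/+ B cell progenitors, DESeq2 and the replicate block each called 1 member, Rgs16, among 5.35% and 0.667% of all genes, where edgeR called 0. There the same-numbered libraries correlated by as little as 0.0121, so the block rests on a shared number. Between both populations DESeq2 called 1 member in Plcg1+/+Plcg2+/+ mice, Rgs3, among 4.75% of all genes, and 2 in Plcg1-/-Plcg2+/+ mice, Rgs14 and Rgs19, among 8.62%, where leaving out each library gave between 0 and 2 and leaving out libraries under 3000000 reads gave 1, Rgs14, among 2.49%. The cause was not tested. Over all genes DESeq2 called more than edgeR, 169 against 14 in double-deficient CLPs and 444 against 134 in double-deficient B cell progenitors, and edgeR without libraries under 3000000 reads called 208 in the latter. With the replicate block edgeR called 50 and 550 there. The block changed no other call.

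Directions of members that were not called turned in places. For the double-deficient genotype against the controls in CLPs, the log2 fold change without each library in turn ranged from −1.67 to 1.21 for Rgs1, −0.59 to 0.13 for Rgs2, −0.18 to 1.21 for Rgs3, −0.65 to 0.16 for Rgs10 and −0.10 to 1.54 for Rgs18, and that of Rgs1 was −1.21 with the replicate block. In B cell progenitors it ranged from −1.08 to 0.50 for Rgs1 and from −0.13 to 0.87 for Rgs10, which stood at −0.13 without libraries under 3000000 reads. Between both populations of Plcg1+/+Plcg2+/+ mice it ranged from −1.66 to 0.23 for Rgs1, −0.10 to 0.70 for Rgs16 and −0.99 to 0.71 for Rgs18. Low counts limit Rgs16 most, since 3 of its 24 values rest on 4 to 6 reads. The value from 4 reads came from double-deficient CLP library 2, which was not shallow, with 12172383 reads on genes.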
